A study of Mus musculus with 16 samples.

Results

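Mitochondrial respiration passes electrons from complex III through cytochrome c to complex IV, which hands them to oxygen, and the proton gradient built along the way drives ATP synthase. Each of these enzymes joins many small proteins encoded in the nucleus and imported into mitochondria to a few made inside the organelle. Neural stem cells of the ventricular-subventricular zone (V-SVZ), the germinal niche beside the lateral ventricle, use glycolysis heavily and rely more on respiration as they differentiate. Tsc2 encodes tuberin, which restrains the kinase complex mTORC1, a promoter of ribosome production, of translation and of mitochondrial metabolism.

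The genes described here encode the subunits of complexes III and IV and of ATP synthase together with cytochrome c. They were chosen by name (symbols that begin with Uqcr, Atp5 or Cox4 to Cox8 followed by a letter, plus Cyc1, Cycs and Usmg5) and by a mean normalized read count of at least 10 in both deposited tables. Of 46 genes with such a name 44 met that minimum, out of 14333 genes that met it and 24946 gene symbols in each table. ATP synthase has 18 of them, complex III with cytochrome c 10 and complex IV 16. The testis isoforms Cox7b2 (mean of 0.556 in total and 0.286 in polyribosomal RNA) and Cox8c (0.106 and 0) fell below the minimum, and Cox4i2 (11.4 and 14.6) lay just above it. Atp5s and Cox7a2l carry the names but encode a factor associated with ATP synthase and a factor that joins complexes III and IV into supercomplexes. The 6 subunits encoded in mitochondrial DNA are not analysed here.

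Primary V-SVZ cultures came from neonatal mice with intact Tsc2 (Tsc2 wt/wt, labelled Control and called wild type below) or with floxed Tsc2 recombined by Cre (Tsc2 mut/mut, labelled TSC and called mutant). The study's methods describe a cross that joins a Cre-ERT2 transgene under the Nestin promoter, which is active in neural stem and progenitor cells, to a red fluorescent reporter of recombination, and give tamoxifen to control and floxed pups alike. The alleles of each control culture, and the sex and litter of each culture, are not listed. All cultures were grown with EGF and FGF, passaged once and given cycloheximide, a drug that stalls ribosomes on mRNA, for 15 minutes. From every culture (4 of each genotype) 1 library was made of total RNA and 1 of polyribosomal RNA, the mRNA in the heaviest 3 mL of a gradient of 17.5% to 50% sucrose, so 16 libraries form 4 groups of 4. Cultures are numbered as in the labels, and the same number in different genotypes is not the same culture. P-values measure the spread between these cultures.

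The step between the lowest values put the depth of total RNA libraries at about 24.7 to 139 M reads and that of polyribosomal libraries at 51.8 to 268 M. Tsc2 cannot check the labels, since its values sum reads over the whole gene. They were 7836, 6817, 6232 and 6701 in wild-type and 7076, 6811, 6190.4 and 5592 in mutant total RNA (adjusted p = 0.422, limma), and in polyribosomal RNA the log2 change was -0.49 ± 0.15 (SE, adjusted p = 0.0389). All 8 neural stem cell markers were present, and their summed values were 602943 to 685669 in wild-type and 625695 to 662546 in mutant total RNA. Oligodendrocyte markers were higher in mutant cultures in both tables (7 of 7). S phase genes were lower (18 of 18 in total and 15 of 18 in polyribosomal RNA), with the lowest sums in mutant cultures 1 and 3. Microglia markers summed to 2903 to 5085 in wild-type cultures and reached 23431 in mutant culture 2. Y-linked genes were low in wild-type culture 4 and in mutant cultures 2, 3 and 4. In bulk RNA a change in the share of cells of a type and a change in RNA per cell cannot be told apart.

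The coding sequences of 4 short subunits are shown first because the results below separate genes by the length of this sequence. In mutant cultures these 4 had the largest rises of polyribosomal relative to total RNA among the genes past the threshold. Each is read from the GENCODE M21 principal transcript on GRCm38, the assembly also called mm10, with the start and stop codons in capitals. Usmg5 (chr19:47083464-47090647, minus strand) encodes 58 amino acids of a subunit that sits in the membrane part of ATP synthase and is needed for its dimers. Atp5mpl (chr12:111961375-111966977, minus strand) encodes the 58 amino acids of another small membrane subunit of the same enzyme. Uqcr10 (chr11:4701973-4704342, minus strand, 64 amino acids) and Uqcr11 (chr10:80402997-80406830, minus strand, 56 amino acids) encode single-helix subunits at the edge of complex III. The spans are those of the whole gene and hold untranslated parts and introns, which are left out of the sequences.
Usmg5: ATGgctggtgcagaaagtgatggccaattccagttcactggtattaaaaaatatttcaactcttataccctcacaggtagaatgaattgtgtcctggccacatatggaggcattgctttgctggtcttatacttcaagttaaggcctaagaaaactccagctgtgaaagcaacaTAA
Atp5mpl: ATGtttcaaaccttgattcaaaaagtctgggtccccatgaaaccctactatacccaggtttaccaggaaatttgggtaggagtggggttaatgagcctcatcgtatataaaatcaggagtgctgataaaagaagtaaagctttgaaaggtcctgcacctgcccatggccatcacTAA
Uqcr10: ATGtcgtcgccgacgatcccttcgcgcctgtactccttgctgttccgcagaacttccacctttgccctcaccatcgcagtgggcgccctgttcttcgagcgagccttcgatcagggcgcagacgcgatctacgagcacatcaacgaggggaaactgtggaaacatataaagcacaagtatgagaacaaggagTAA
Uqcr11: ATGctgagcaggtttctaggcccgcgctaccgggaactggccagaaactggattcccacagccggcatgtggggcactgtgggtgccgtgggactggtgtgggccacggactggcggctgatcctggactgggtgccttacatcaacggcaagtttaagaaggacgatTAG

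Polyribosomal Usmg5 was 2454, 4876, 3925 and 4923 normalized reads in wild-type cultures 1 to 4 and 8371, 5017, 6201 and 6088 in mutant cultures 1 to 4. Total Usmg5 was 8125, 10110.1, 8454 and 8939 in wild-type and 7180.3, 6556, 7683 and 8378 in mutant cultures. In polyribosomal RNA every mutant culture lay above every wild-type culture, whereas in total RNA 3 of 4 mutant cultures lay below all wild-type cultures. The log2 change was -0.26 ± 0.10 (SE) in total RNA, which did not pass the threshold (adjusted p = 0.0618, limma), and 0.69 ± 0.22 in polyribosomal RNA, which did (adjusted p = 0.0411). Usmg5 shares exonic bases with Taf5 on the other strand, whose own values were 590.1 to 1210.05 in total RNA, and its log2 change there was -0.47 (adjusted p = 0.0381), against -0.21 in polyribosomal RNA (adjusted p = 0.406).

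Uqcr10 was 4292, 10379.9, 9949 and 11191 in wild-type and 19109, 11320.4, 14137 and 15206 in mutant polyribosomal RNA. Wild-type culture 1 was far below the other 3, and the lowest mutant culture was barely above the highest wild-type culture. The change of 0.81 ± 0.29 did not pass the threshold (adjusted p = 0.0627, limma). Uqcr11 was 5883, 11299.5, 9869.5 and 11462 in wild-type and 20765, 11721, 13410.3 and 15267 in mutant polyribosomal RNA, again without overlap and with wild-type culture 1 lowest (0.68 ± 0.22, adjusted p = 0.0464, limma). Atp5mpl was 4671, 5959.6, 6312 and 6453 against 11017, 7355, 7662 and 8728 (0.56 ± 0.16, adjusted p = 0.0233). Its groups did not overlap either. In total RNA none of the 3 passed, with changes of -0.14, -0.19 and -0.27.

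**Figure D1:**
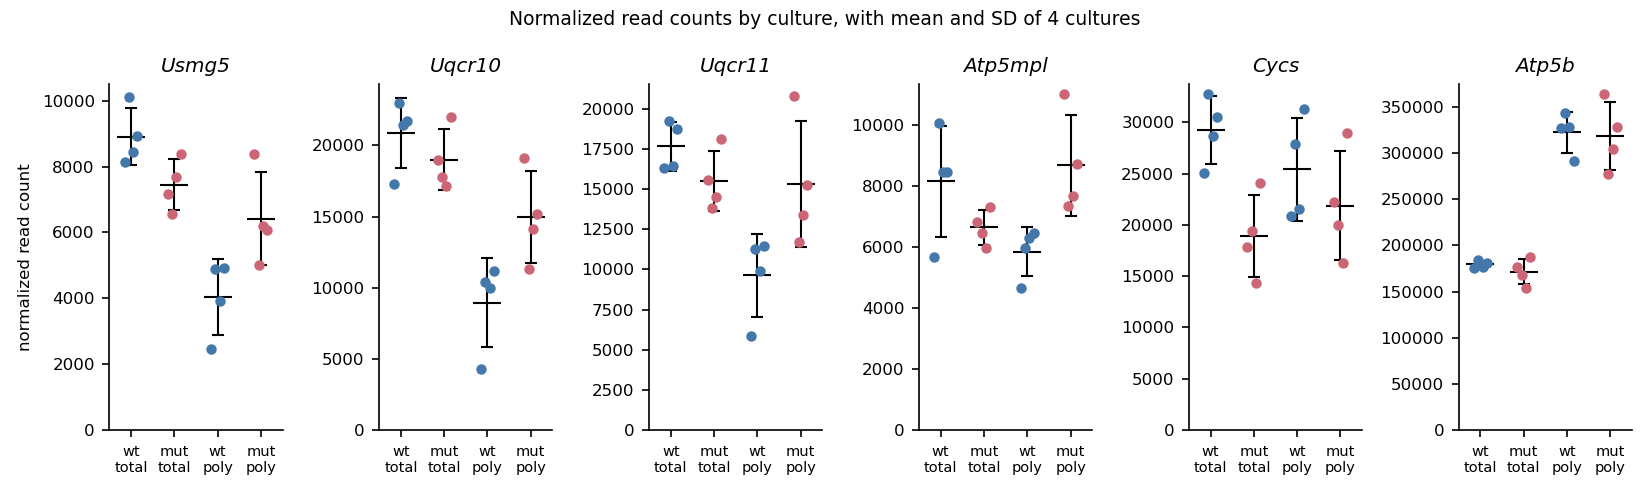
Normalized read counts (vertical axes, from 0, a scale of its own for each gene) of 4 short subunit genes, of Cycs and of Atp5b in the 4 cultures of each genotype (wt, wild type; mut, mutant) in total and polyribosomal (poly) RNA. Points are cultures, and bars are the mean and SD of 4. Usmg5, Uqcr10, Uqcr11 and Atp5mpl were higher in mutant polyribosomal RNA without overlap, Cycs was lower in mutant total RNA without overlap, and Atp5b overlapped in both.

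Levels were compared between genes per kilobase of transcript in wild-type total RNA. The highest was the catalytic beta subunit Atp5b (93646 normalized reads per kilobase), followed by Atp5g3, one of 3 genes for the c-ring of ATP synthase (76642), and by Cox8a (74088), Cox4i1 (66079.5) and Cox6a1 (64083) of complex IV. In complex III the highest was Uqcrq (59111), a small subunit next to cytochrome b. At the other end stood genes known from other tissues, with Cox4i2 at 14.7, Cox6a2 at 38.3, Cox8b at 55.7 and Cox7a1 at 526, and the factor Atp5s at 279. The core proteins of complex III, which sit side by side in the enzyme, stood at 8759 (Uqcrc2) and 21575 (Uqcrc1).

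In total RNA most of these genes were slightly lower in mutant cultures, and few passed the threshold. Of 44 genes 6 fell and 2 rose (limma, adjusted p under 0.05), and the background over all 14967 tested genes was 20.7% lower and 19.7% higher, so the share of these genes called in either direction was below that of all genes. The median log2 change was -0.18 with 38 of 44 below 0, and the median of all tested genes was 0.01. All 18 ATP synthase genes lay below 0 (median -0.19, 3 fell), as did all 10 of complex III with cytochrome c (median -0.22, 3 fell). In complex IV 10 of 16 lay below 0 (median -0.06), none fell and 2 rose. With no adjustment 15 of the 44 had a p under 0.05, as did 50.5% of all tested genes. With libraries rescaled to equal totals 1 of the 44 fell and 2 rose, and over all tested genes the split went from 3091 lower and 2944 higher to 2263 lower and 3833 higher.

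Cycs, the soluble carrier of electrons between complexes III and IV that also triggers apoptosis when released, had the largest fall. It was 25031, 32778, 28647 and 30561 in wild-type and 17889, 19369.8, 14360.2 and 24061 in mutant total RNA, a log2 change of -0.65 ± 0.15 (SE, adjusted p = 0.00868, limma). Each mutant culture lay below each wild-type culture. Cycs was the 1 gene of the 44 that was lower without overlap, against 20.3% of all tested genes. In polyribosomal RNA its change was -0.23 ± 0.18 (adjusted p = 0.380), which did not pass.

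The c-ring gene Atp5g1 was 18717, 26482, 26279 and 22776 in wild-type and 17816, 18739, 12092 and 19170.3 in mutant total RNA (-0.48 ± 0.16, adjusted p = 0.0376, limma). Mutant culture 3 stood apart below the others, and without mutant cultures 1 and 3 the change was -0.30. The other 2 c-ring genes, which encode the same mature protein, did not pass, with changes of -0.21 ± 0.09 for Atp5g2 and -0.20 ± 0.11 for Atp5g3. Atp5c1, the rotating gamma subunit, was 24089, 33018, 30773 and 28708 in wild-type and 23098, 23598, 19518 and 24429 in mutant cultures, with 1 mutant culture within the wild-type range (-0.36 ± 0.11, adjusted p = 0.0294). Atp5f1, subunit b of the peripheral stalk, fell by a like amount (-0.36 ± 0.11, adjusted p = 0.0277), as did Cyc1, the cytochrome that hands electrons to cytochrome c (-0.34 ± 0.12, adjusted p = 0.0413), and Uqcrq (-0.30 ± 0.11, adjusted p = 0.0488). Without mutant cultures 1 and 3, which had the lowest S phase genes, 0 of the 6 passed (limma; 1 of the 44 was lower at an unadjusted p under 0.05), with values of -0.17 (Uqcrq) to -0.43 (Cycs), and falls over all tested genes went from 3091 to 1151. With Y-linked expression as a covariate 0 passed too (4 unadjusted), with values of -0.33 (Atp5c1) to -0.73 (Cycs), and falls over all genes went to 535. Leaving out single cultures gave from 1 fall (without wild-type culture 2, 3 or 4 or mutant culture 1 or 3) to 16 (without wild-type culture 1).

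In polyribosomal RNA the direction was the other one. Of 44 genes 14 rose and 0 fell, against 11.7% higher and 11.9% lower among 14412 tested genes, and 21 had an unadjusted p under 0.05, as did 38.8% of all tested genes in either direction. The median log2 change was 0.29 with 38 of 44 above 0, and the median of all tested genes was 0.01. Complex IV held 9 of the 14 (of its 16 genes, median 0.45), ATP synthase 4 of its 18 (median 0.16) and complex III 1 of its 10 (median 0.20). With libraries rescaled to equal totals 22 rose and 0 fell, and over all genes the split went from 1713 lower and 1690 higher to 929 lower and 2583 higher. In 13 genes every mutant culture was above every wild-type culture, against 13.3% of all tested genes.

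The complex IV genes that rose include the widely expressed small subunits that surround its catalytic core. Cox6a1 was 9513, 17914, 15183 and 17812 in wild-type and 36841, 18665, 27440 and 28411 in mutant polyribosomal RNA (0.88 ± 0.23, adjusted p = 0.0194, limma). Cox8a was 19230.4, 34309.9, 29184 and 32839 against 61418, 37898, 42525 and 49660.3 (0.74 ± 0.19, adjusted p = 0.0192). Wild-type culture 1 was the lowest for both. Smaller rises were measured for Cox6c (0.65, adjusted p = 0.0479), Cox6b1 (0.60, 0.0185), Cox7c (0.48, 0.0496) and Cox7a2 (0.41, 0.0478). In ATP synthase the risers besides Usmg5 and Atp5mpl were Atp5e, the epsilon subunit of the central stalk (0.60, adjusted p = 0.0451), and Atp5l, subunit g of the membrane part (0.54, 0.0265). The larger subunits did not pass, with 0.01 ± 0.10 for the alpha subunit Atp5a1, -0.02 ± 0.11 for Atp5b, -0.02 ± 0.14 for Uqcrc2 and 0.19 ± 0.12 for Uqcrc1. Atp5b was 327025, 343447, 328300 and 291816 in wild-type and 364027, 277252, 304698 and 328725 in mutant polyribosomal RNA, and the groups overlapped throughout.

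Without mutant cultures 1 and 3, 0 of 44 passed (limma; 8 had an unadjusted p under 0.05) with a median of 0.26, and rises over all tested genes went from 1690 to 535. With the Y-linked covariate 0 passed as well (18 unadjusted), the median was 0.42, and 17 rises over all genes were left. Without mutant culture 1 alone 1 passed, and without wild-type culture 1, which was the lowest wild-type culture for each of the 19 genes with a coding length of up to 300 bases, 5 passed. The median change kept its sign and was 0.25 to 0.37 when single cultures were left out.

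**Figure D2:**
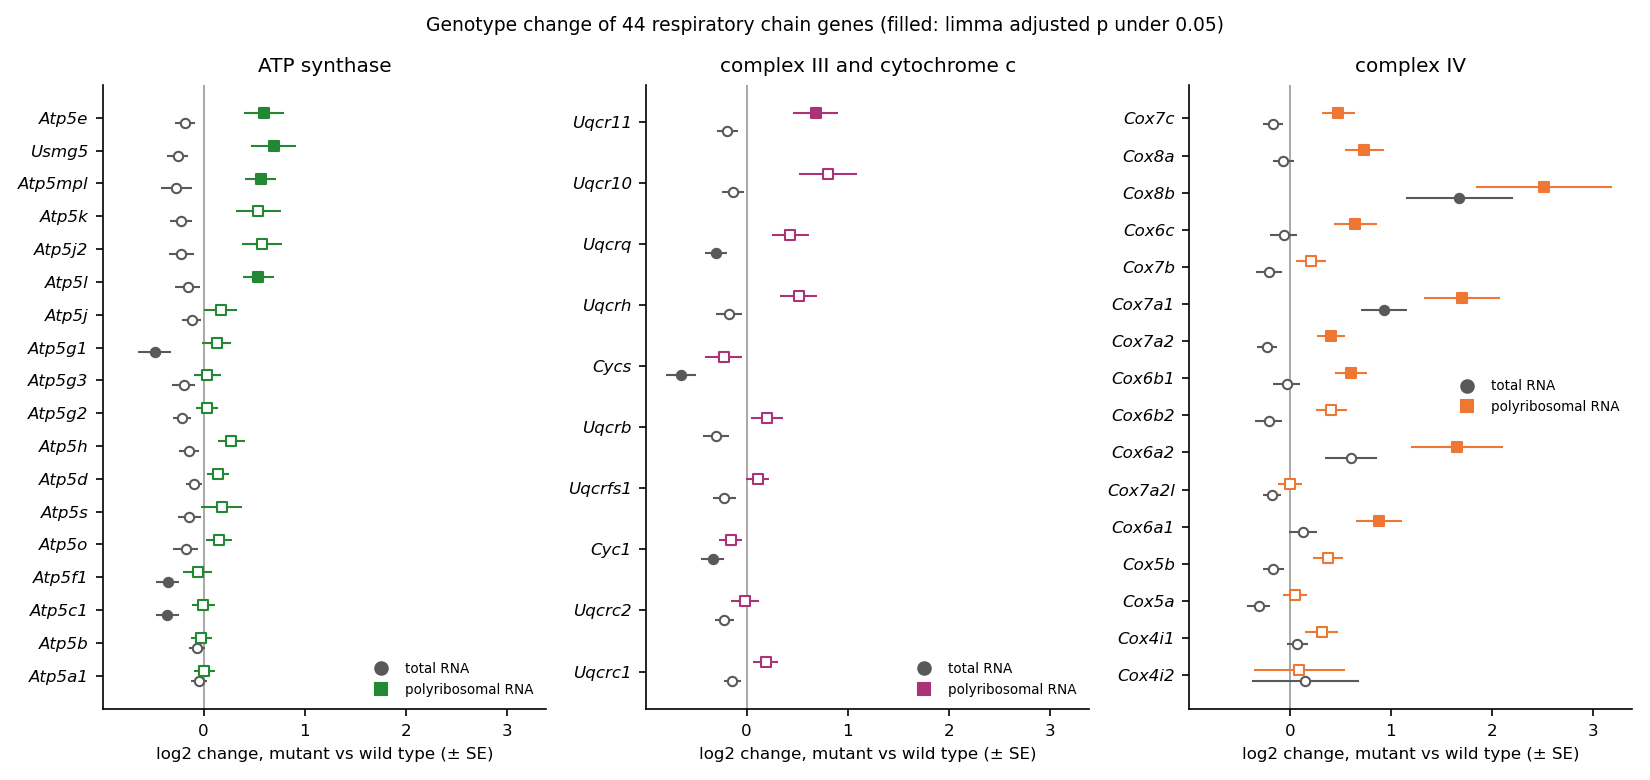
Log2 change from wild-type to mutant cultures with its SE (horizontal axis) of the 44 genes in total RNA (grey circles) and polyribosomal RNA (coloured squares), by complex and ordered by coding length with the shortest at the top; filled symbols passed an adjusted p of 0.05 (limma). Total RNA lies mostly below 0 (38 of 44) and polyribosomal RNA mostly above 0 (38 of 44).

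Translational efficiency was taken as the log2 change in polyribosomal RNA minus that in total RNA, tested as the interaction of genotype and fraction with culture as a block. It rose for 24 of the 44 genes and fell for 0, against 5.07% higher and 7.89% lower among 14333 tested genes. The median was 0.52, and the value was above 0 in 43 of 44 genes, the exception being Cox4i2 (-0.06). The median of all tested genes was 0.01. By complex 10 of 16 rose in complex IV (median 0.63), 6 of 10 in complex III with cytochrome c (median 0.46) and 8 of 18 in ATP synthase (median 0.34). In 29 genes the ratio of polyribosomal to total RNA was higher in every mutant culture than in every wild-type culture, against 8.16% of all tested genes. In 32 genes the change was below 0 in total RNA and above 0 in polyribosomal RNA, and 21 of these were among the 24. The 24 rises ranged from 0.41 to 0.95 with SEs of 0.11 to 0.22 and adjusted p-values of 0.00613 to 0.0422.

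Usmg5 had the largest rise (0.95 ± 0.18, adjusted p = 0.00726, limma), with log2 ratios of polyribosomal to total RNA of -1.73, -1.05, -1.11 and -0.86 in wild-type and 0.22, -0.39, -0.31 and -0.46 in mutant cultures. Wild-type culture 1 and mutant culture 1 held the lowest and the highest ratio. In ATP synthase the rises were in the small membrane subunits Usmg5, Atp5mpl (0.83), Atp5j2 (0.80), Atp5k (0.76) and Atp5l (0.70), in Atp5e (0.79), in the c-ring gene Atp5g1 (0.61) and in Atp5h, subunit d of the peripheral stalk (0.42). The catalytic subunits had values of 0.05 ± 0.11 (Atp5a1) and 0.04 ± 0.11 (Atp5b), and the stalk subunit Atp5o of 0.33 ± 0.12 (adjusted p = 0.0701). None of these 3 passed.

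In complex III the small subunits Uqcr10 (0.94), Uqcr11 (0.87), Uqcrq (0.74), Uqcrh (0.69) and Uqcrb (0.51) rose, together with Cycs (0.42). The core proteins Uqcrc1 (0.33 ± 0.12) and Uqcrc2 (0.21 ± 0.14), the Rieske iron-sulfur protein Uqcrfs1 (0.33 ± 0.12) and Cyc1 (0.18 ± 0.11) did not pass, with adjusted p-values of 0.0748, 0.341, 0.0808 and 0.307 (limma). In complex IV the rises were in Cox8a (0.80), Cox7a1 (0.77), Cox6a1 (0.75), Cox6c (0.71), Cox7c (0.65), Cox6b1 (0.64), Cox7a2 (0.63), Cox6b2 (0.62), Cox5b (0.54) and Cox7b (0.41). Cox4i1 (0.24 ± 0.13), Cox5a (0.36 ± 0.12, adjusted p = 0.0514) and the supercomplex factor Cox7a2l (0.18 ± 0.12) did not pass. Of the 24 genes 12 also rose in polyribosomal RNA alone and 12 did not. Conversely Cox8b and Cox6a2 rose in polyribosomal RNA and did not pass for efficiency, with values of 0.84 ± 0.34 (adjusted p = 0.108) and 1.05 ± 0.42 (adjusted p = 0.109).

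The calls for efficiency depend on how the variance was estimated and on which cultures entered. With plain moderation of the variances, without a trend or a robust prior, 0 of the 44 and 0 of all tested genes passed (limma; 31 of the 44 had an unadjusted p under 0.05, and the lowest adjusted p lay just above the threshold). The count was also 0 without mutant cultures 1 and 3 (23 unadjusted), with the Y-linked covariate (28 unadjusted) and without the culture block (24 unadjusted), settings in which no gene of the whole table passed. Without mutant culture 1 alone 15 passed, and without mutant cultures 2 and 4 the count was 26. S phase genes were lowest in mutant cultures 1 and 3, whereas Y-linked genes set mutant culture 1 apart from the other mutant cultures. The part of S phase and Y-linked genes in the efficiency values was not tested apart from these fits. The median over the 44 was 0.45 to 0.59 when single cultures were left out.

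Coding length, counted without the stop codon in GENCODE M21 principal transcripts, was short for most of the genes that rose. This grouping was made after the values had been seen, and it carries no test. Of 19 genes with a coding length of up to 300 bases 17 rose in efficiency (median 0.77), of 16 with 301 to 600 bases 7 rose (median 0.34), and of 9 over 600 bases 0 rose (median 0.30, all above 0). The 2 short genes that did not pass were Cox8b and Cox6a2. In polyribosomal RNA alone 12 of the 19 short genes rose with a median of 0.60, and in total RNA the same 19 had a median of -0.18. The Spearman correlation of coding length with the efficiency change was -0.84 across the 44 genes, which share libraries and are not independent.

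Other short genes moved the same way. Of 259 other tested genes with a coding length of up to 300 bases 48.3% rose in efficiency (median 0.55), of 656 with 301 to 450 bases 30.6% (median 0.38), and of 830 with 451 to 600 bases 12.3% (median 0.20). Among 1882 other genes over 3000 bases 24.9% fell (median -0.24). Across all 13602 tested genes with a coding length the Spearman correlation was -0.42. In the up to 300 class the 44-gene set had the higher median (0.77 against 0.55). The medians lay close together at 301 to 450 bases (0.42 for 11 genes against 0.38) and at 451 to 600 bases (0.24 for 5 genes against 0.20). In the 601 to 900 class its 4 genes had 0.33 against 0.11 for 1848 others. At 901 to 1500 bases 3 genes had 0.21 against 0.02, and at 1501 to 3000 bases 2 genes had 0.05 against -0.10. The difference from other genes of like length was not tested. How coding length bears on recovery in the heaviest part of the gradient was not tested either.

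**Figure D3:**
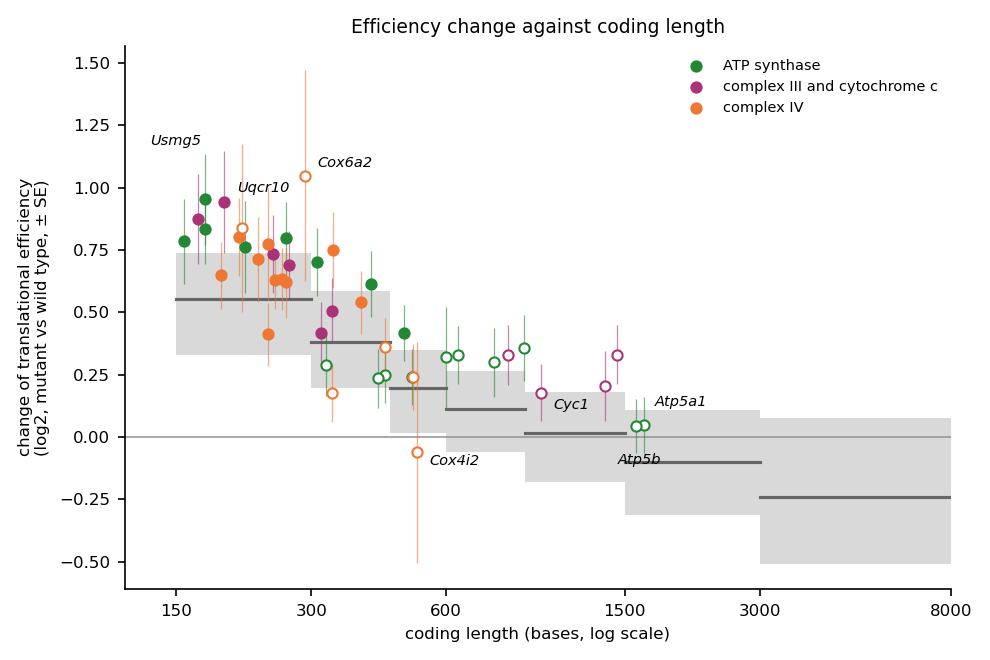
Change of translational efficiency (vertical axis, log2, mutant against wild type, with SE) against coding length in bases (horizontal axis, log scale) for the 44 genes, coloured by complex; filled symbols passed an adjusted p of 0.05 (limma). Grey bands and lines are the quartiles and medians of other tested genes in each length class, which fall from a median of 0.55 up to 300 bases to -0.24 over 3000 bases. The genes with up to 300 bases, other than Cox7b, lie above the median of other genes of that length, and Atp5a1 and Atp5b lie near 0.

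Within each culture the ratio was then set against the median ratio of all tested genes, which removes the scaling of the tables. The 19 short genes had a median log2 ratio relative to all genes of -0.87, -0.46, -0.52 and -0.27 in wild-type cultures 1 to 4 and of 0.61, 0.13, 0.26 and 0.19 in mutant cultures 1 to 4. They thus lay below the typical gene in each wild-type culture and above it in each mutant culture. The 259 other short genes had -0.82, -0.49, -0.44 and -0.28 in wild-type and 0.33, -0.08, 0.17 and -0.07 in mutant cultures. The 9 genes over 600 bases lay above the typical gene in both genotypes, at 0.87, 0.71, 0.68 and 0.83 in wild-type and 1.09, 0.82, 1.21 and 1.06 in mutant cultures. Wild-type culture 1 had the lowest ratio for short genes and mutant culture 1 the highest, both among these subunits and among the other short genes. The part of these 2 cultures in the genotype difference was not tested beyond the fits that left each of them out.

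**Figure D4:**
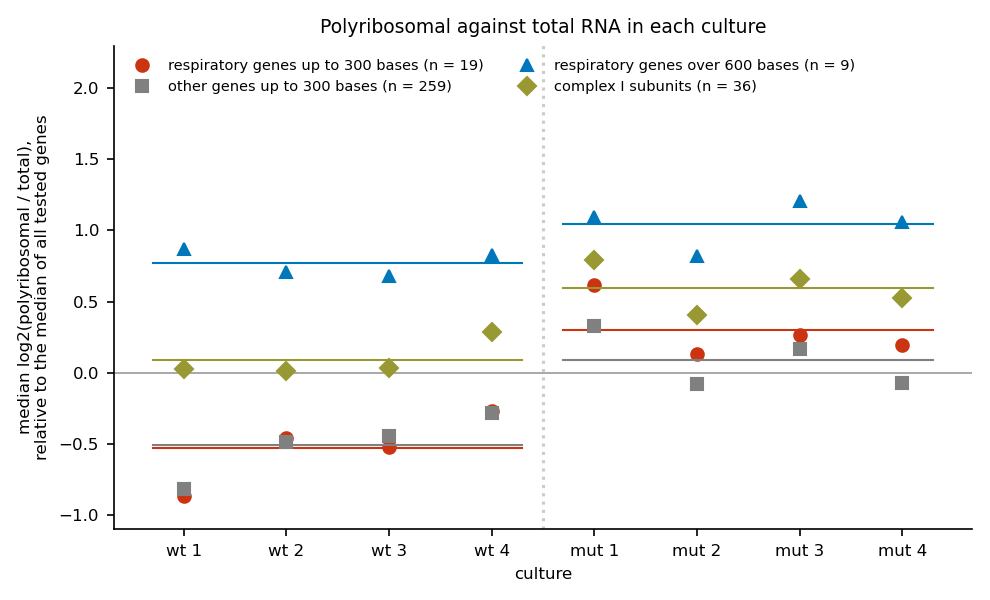
Median log2 ratio of polyribosomal to total RNA relative to the median of all tested genes (vertical axis) in each of the 8 cultures (horizontal axis) for 19 respiratory genes and 259 other genes with coding lengths up to 300 bases, 9 respiratory genes over 600 bases and 36 complex I subunits; horizontal lines are means of 4 cultures. The short respiratory genes lie below 0 in all wild-type cultures and above 0 in all mutant cultures.

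Some subunits of complex IV have a second gene used in particular tissues, and 3 of these second genes rose. Cox7a1 is the isoform of heart, skeletal muscle and brown fat, and Cox7a2 is the common one. Cox7a1 was 195, 283, 191 and 254 in wild-type and 541, 278, 484 and 492 in mutant total RNA (0.93 ± 0.23, adjusted p = 0.0106, limma), where mutant culture 2 fell within the wild-type range. In polyribosomal RNA it was 85.8, 259, 149 and 245 against 827, 299, 599 and 632 (1.71 ± 0.38, adjusted p = 0.0110), and no culture overlapped. With the Y-linked covariate its changes were 0.98 (adjusted p = 0.0729, limma) and 1.71 (0.116), and without mutant cultures 1 and 3 they were 0.70 (0.111) and 1.36 (0.0920), so neither call held in these fits. Cox8b, the isoform of heart and muscle and of brown fat, was 9.96, 24.4, 29.1 and 16.7 against 102, 31.3, 142 and 31.9 in total RNA (1.68 ± 0.53, adjusted p = 0.0296) and 2.92, 20.3, 22.2 and 10.4 against 146, 31.0, 142 and 34.2 in polyribosomal RNA (2.52 ± 0.67, adjusted p = 0.0233). Mutant cultures 1 and 3 were far above the other mutant cultures, which were just above the wild-type range. Without mutant cultures 1 and 3 the change of Cox8b was 0.73 in total and 1.46 in polyribosomal RNA and did not pass, and without mutant cultures 2 and 4 it was 2.63 in total RNA. A single read in wild-type culture 1 was worth about 1.38 in the polyribosomal table, so its Cox8b value there stands for about 2 reads. Cox6a2, the heart and muscle isoform of Cox6a1, was 25.2, 26.9, 30.8 and 21.2 against 45.5, 30.6, 53.9 and 33.4 in total RNA (0.61 ± 0.26, adjusted p = 0.0838) and rose in polyribosomal RNA (4.29, 21.2, 14.0 and 19.6 against 48.0, 33.3, 69.6 and 29.2; 1.65 ± 0.46, adjusted p = 0.0237).

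Ratios of such isoforms within a library do not depend on its scaling. Over 8 pairs in both tables (16 tests, exact two-sided permutation test, where 4 against 4 cultures cannot give a p below 0.0286) no ratio passed after adjustment. Cox7a1 over Cox7a2 was 2.23-fold higher in mutant total RNA and 2.46-fold higher in polyribosomal RNA, without overlap in either (exact p = 0.0286 each, adjusted p = 0.152). Cox8b over Cox8a was 3.35-fold and 3.43-fold higher, with 1 or more overlapping cultures (exact p = 0.0571 each, adjusted p = 0.183). Cox6a2 over Cox6a1 was 1.39-fold and 1.71-fold higher (exact p = 0.143 and 0.114). Atp5g1 over Atp5g3 was 0.819 times its wild-type level in total RNA without overlap (exact p = 0.0286, adjusted p = 0.152) and 1.06 times in polyribosomal RNA. Ratios of Cox4i2 to Cox4i1, the lung isoform to the common one, had log2 differences of 0.08 and -0.22 with SDs between cultures of 0.61 to 1.00, and Cox6b2 to Cox6b1, the testis isoform to the common one, of -0.18 and -0.19. Those of Atp5g1 to Atp5g2 were -0.27 in total and 0.09 in polyribosomal RNA, and those of Atp5g3 to Atp5g2 were 0.02 and 0.0048.

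**Figure D5:**
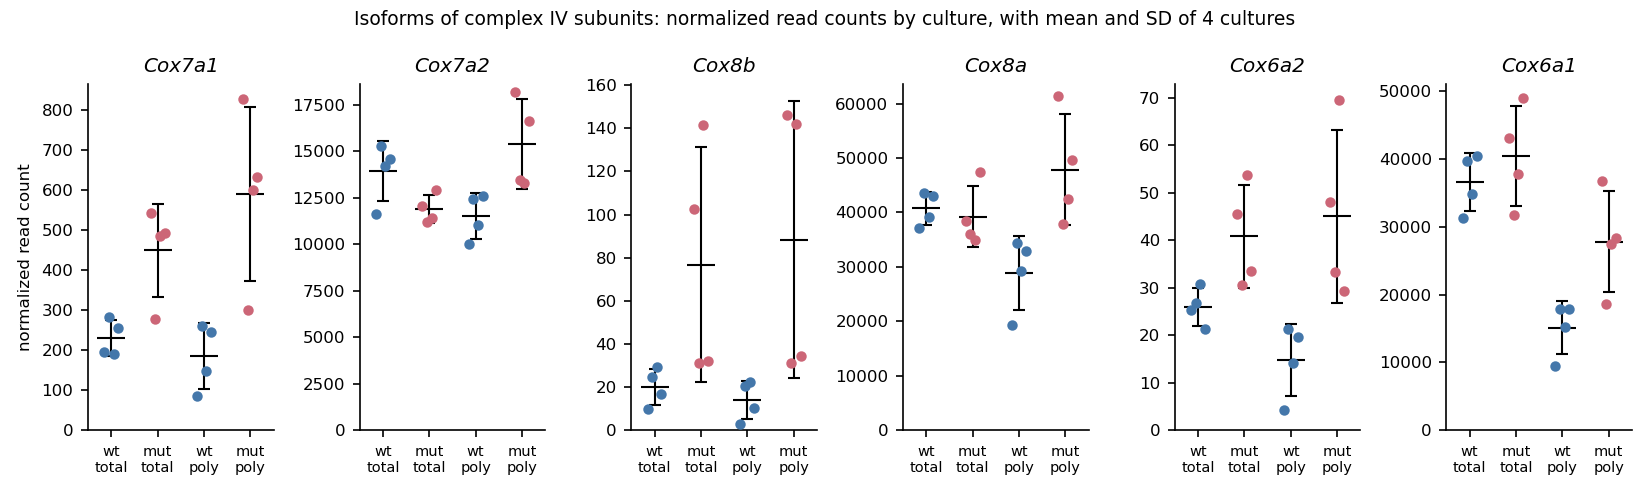
Normalized read counts (vertical axes, from 0, a scale of its own for each gene) of Cox7a1, Cox8b and Cox6a2, which are isoforms of muscle or brown fat, each beside its common counterpart Cox7a2, Cox8a or Cox6a1, by genotype (wt, wild type; mut, mutant) in total and polyribosomal (poly) RNA. Points are cultures, and bars are the mean and SD of 4. Mutant cultures 1 and 3 carry the highest Cox8b values.

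Markers of other cells that use these isoforms were read beside them, from lists drawn up after the values had been seen. Of 8 tested markers of mural cells (pericytes and vascular smooth muscle) 4 were higher and 1 lower in mutant total RNA, with sums of 5119 to 8196 in wild-type and 9055 to 13608 in mutant cultures, and 1 of 7 tested was higher in polyribosomal RNA, where the sums overlapped. Most of the sum came from Cspg4 (mean of 2476 in wild-type and 5684 in mutant total RNA) and Notch3 (3221 and 4393), which oligodendrocyte precursors and neural stem cells also express. The summed level is therefore not specific to mural cells. Rgs5 (65.2 and 205, adjusted p = 0.0429, limma) and Pdgfrb (159 and 287, adjusted p = 0.0228) also rose in total RNA. The smooth muscle actin Acta2 fell (345 and 232), and Tagln, Des and Kcnj8 did not pass. In polyribosomal RNA the 1 call was Rgs5, with means of 17.5 in wild-type and 90.1 in mutant cultures (adjusted p = 0.0296, limma). Of the striated muscle markers 0 of 3 tested passed in total and 0 of 4 in polyribosomal RNA (limma), with sums of 57.4 to 85.1 in wild-type and 74.5 to 97.4 in mutant total RNA. Of 4 brown fat markers 1 was abundant enough to test, Cidea, and it rose in both tables (1.52 in total and 1.94 in polyribosomal RNA). Cidea was low, with means of 13.8 in wild-type and 38.9 in mutant total RNA. Means there were 1.42 and 2.36 for Ucp1, 0.646 and 1.30 for Adipoq and 1.00 and 1.41 for Plin1. No marker of these lists was at 0 in all libraries, but values this low stand for few reads. The part of the markers in the isoform values was not tested.

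Genes that act with these enzymes were counted in the same fits. The shares of all tested genes were 20.7% lower and 19.7% higher in total RNA and 11.7% higher and 11.9% lower in polyribosomal RNA. In efficiency they were 5.07% higher and 7.89% lower. Of 36 tested complex I subunits 8 fell in total RNA, a share close to that of all genes, 7 rose in polyribosomal RNA and 25 rose in efficiency (median 0.49). In total RNA Ndufb10 (-0.45) and Ndufab1 (-0.55) were among the falls, and in polyribosomal RNA Ndufa3 (0.78) and Ndufa1 (0.76) were among the rises. Complex II, the smallest of the chain and a part of the tricarboxylic acid cycle, had no call in total or polyribosomal RNA and 1 of 4 genes higher in efficiency, the iron-sulfur subunit Sdhb (0.47). Factors that build the enzymes were counted next. Of 24 complex IV assembly factors 15 fell in total RNA (median -0.31), such as the copper chaperone Cox17 (-0.58), Coa3 (-0.53) and Lrpprc (-0.46), which stabilises mitochondrial mRNAs. In polyribosomal RNA 2 of these 24 rose and 4 fell, and in efficiency 12 rose. Of 6 complex III assembly factors 4 fell in total RNA, with -0.82 for Lyrm7 and -0.58 for Bcs1l, which insert the Rieske protein. In polyribosomal RNA Bcs1l (-0.44) and Uqcc1 (-0.37) fell and 0 rose, and in efficiency 1 rose, Uqcc2 (0.83). Of 5 factors of ATP synthase 3 fell in total RNA, Atpaf2 (-0.49), Atpaf1 (-0.41) and Tmem70 (-0.34), and 2 rose in efficiency, Fmc1 (0.70) and the inhibitor Atpif1 (0.59). Hccs, which attaches heme to both cytochrome c and Cyc1, fell in total (-0.41) and polyribosomal RNA (-0.60).

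The tricarboxylic acid cycle, which feeds electrons to the chain, had 2 falls among 14 genes in polyribosomal RNA, Cs (-0.34) and Ogdh (-0.38). In efficiency 0 of its genes rose and Ogdh fell (-0.43). The coding lengths of the cycle genes ran from 1014 (Mdh2) to 3069 bases (Ogdh). Of other tested genes 1.25% rose in efficiency at 901 to 1500 bases and 1.48% at 1501 to 3000 bases. Of 17 tested regulators of mitochondrial gene expression and biogenesis 9 fell and 1 rose in total RNA. The coactivator Ppargc1a rose (0.77 in total and 0.92 in polyribosomal RNA), whereas its relative Ppargc1b (-0.85) and the mitochondrial DNA packaging factor Tfam (-0.55) fell in total RNA. In polyribosomal RNA 6 of the 17 fell, among them the third relative Pprc1 (-1.19) and the mitochondrial DNA polymerase Polg (-0.78). In efficiency 4 fell, against 7.89% of all tested genes. These were Pprc1, Polg and Polrmt, with coding lengths of 4932, 3651 and 3621 bases, and Yy1 with 1242. Among other tested genes over 3000 bases 24.9% fell in efficiency. Each change given here is a log2 change past an adjusted p of 0.05 (limma), and no list was tested as a whole. The efficiency calls come from the fit in which no gene passed under the settings named above.

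Promoters of the subunit genes were searched for short motifs, and no promoter motif was tested against a genotype change. RefSeq start sites (GRCm38.p6, from 250 bases before to 50 after) were found for 32 of the 44 genes, and motifs were matched on both strands. NRF1 is a known regulator of respiratory genes that binds the palindrome shown in capitals below. The palindrome with any base in place of its A was in 8 of 32 genes (25.0%) and in 5.19% of 27025 genes. The 27025 are all genes with a RefSeq start site, whether or not they were expressed in these cultures. Shares among genes of like expression were not taken. The exact palindrome, a subset of these matches, was in 4 (12.5% against 1.07%). The ETS family motif CCGGAAG was in 11 (34.4% against 9.93%), CCAAT in 18 (56.3% against 41.1%), AAGATGGCG, found in sites of YY1, in 2 (6.25% against 1.64%), the E-box CACGTG in 3 (9.38% against 8.09%) and the TATA box letters TATAAA in 3 (9.38% against 15.7%). Start sites with a C followed by 4 pyrimidines, the beginning of the motif known in mRNAs of the translation machinery, were found in 3 of 32 genes (Atp5d, Atp5g2 and Uqcrfs1, 9.38% against 3.01% of all). None of the 3 rose in efficiency, and their median was 0.25 against 0.63 for the other genes with a start site. Their coding lengths were 504 (Atp5d), 438 (Atp5g2) and 822 bases (Uqcrfs1). None was in the shortest length class, where most of the rises lay. Efficiency medians within the 44 genes were 0.42, 0.24 and 0.33 at 301 to 450, 451 to 600 and 601 to 900 bases. The part of the start sequence was not tested apart from coding length. A match is a run of letters and no evidence of binding. The windows below hold the palindrome in capitals, each on the minus strand, at chr15:102671065-102671104 for Atp5g2, chr5:108434425-108434464 for Atp5k and chr5:115349096-115349135 for Cox6a1 (3 of the 4 genes with an exact match).
Atp5g2: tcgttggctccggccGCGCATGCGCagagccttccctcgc
Atp5k: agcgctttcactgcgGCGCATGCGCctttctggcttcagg
Cox6a1: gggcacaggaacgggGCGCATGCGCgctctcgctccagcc

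The reads were not assigned by strand, and 10 of the 44 genes share exonic bases with a gene on the other strand (Atp5a1, Atp5f1, Atp5j, Atp5l, Atp5o, Usmg5, Uqcrb, Uqcrc2, Cox5a and Cox6a2), so their values may include reads of that gene. For Cox6a2 the overlapping gene Itgad had values of 0 to 2.42. Cycs, the c-ring genes and many small subunits also have processed pseudogenes or close relatives, and how such reads were counted is not stated in the labels or the study's methods.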

How the data were processed

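Total and polyribosomal polyadenylated RNA of 4 Tsc2 wt/wt and 4 Tsc2 mut/mut neural stem cell cultures was sequenced (paired ends) from libraries that do not keep the strand. Reads were trimmed with FastQ Toolkit 2.2.5 and aligned with STAR 2.6.1a to mm10 by the authors, as the submitters' processing notes and the study's methods state. What they deposited is a signal: for every gene, the read count that the authors divided by DESeq2 normalization factors, in separate tables for total and polyribosomal RNA. The counting tool and gene annotation are not stated in these sources. Of 24972 rows 26 with names turned into dates were left out. Within 0.1 of a whole number of reads lay 84.5% to 91.4% (total) and 66.8% to 92.6% (polyribosomal) of low values, so whole reads were not recovered and no count model was used.

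Values were fitted as log2(value + 1) with limma 3.58.1 (R 4.3.3) with a variance trend, robust moderation and Benjamini-Hochberg adjustment over all genes with a mean of at least 10, and called at 0.05. This scale understates changes of low genes. Each table was fitted by genotype, and efficiency over 16 libraries with culture as a block. Total and polyribosomal libraries of 1 culture are paired by the labels' descriptions, and their deviations from group means correlated at 0.233 to 0.731. Isoform ratios were compared with exact permutation tests (Python 3.11.15). Coding lengths came from GENCODE M21 principal transcripts. The fits of each table and of efficiency were also run on simulated data. Total and polyribosomal values were drawn independently there, so the pairing by culture was not simulated.

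The genes and lists were chosen with earlier results of these data known. Named are all genes past the threshold, the isoform pairs, the core subunits, the extremes of change and level in each complex, and up to 4 genes of each other list past the threshold in each table, by smallest p. Genes of other lists given for efficiency, and markers, were named after their values were seen. A result of another list that this rule selects is not reported here. Alternatives were other pseudocounts, filters, scalings, moderation, the Y-linked level as a covariate, the replicate block and left-out cultures.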

Additional observations from a re-analysis of the deposited data

Results flagged for a closer look

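Among 176 groups of 4 libraries (44 genes in 4 groups) 8 had 1 library far from the other 3, a number that chance alone gives at about 5% of groups. The gap to the nearest library, as a share of the group's range, was 0.857 for Atp5a1 in polyribosomal RNA (175281 in mutant culture 2, others 210674 to 217217), 0.936 for Atp5f1 in polyribosomal RNA (53993 in mutant culture 4, others 34849 to 35846) and 0.877 for Uqcr10 in polyribosomal RNA (4292 in wild-type culture 1, others 9949 to 11191). In total RNA mutant culture 3 was the lowest for Atp5g1 (0.841), Uqcrc1 (0.916) and Uqcrc2 (0.897), at 12092, 28674.5 and 12567 normalized reads. Atp5k was highest in mutant culture 4 (0.884), and Cox7a1 was lowest in mutant culture 2 (0.833).

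The genotype change differed between polyribosomal and total RNA, by the interaction in limma, for 24 genes. The difference was 0.79 for Atp5e, 0.61 for Atp5g1, 0.42 for Atp5h, 0.80 for Atp5j2, 0.76 for Atp5k, 0.70 for Atp5l, 0.83 for Atp5mpl and 0.95 for Usmg5 in ATP synthase. It was 0.42 for Cycs, 0.94 for Uqcr10, 0.87 for Uqcr11, 0.51 for Uqcrb, 0.69 for Uqcrh and 0.74 for Uqcrq in complex III. In complex IV it was 0.54 for Cox5b, 0.75 for Cox6a1, 0.64 for Cox6b1, 0.62 for Cox6b2, 0.71 for Cox6c, 0.77 for Cox7a1, 0.63 for Cox7a2, 0.41 for Cox7b, 0.65 for Cox7c and 0.80 for Cox8a.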

How the results depend on the processing

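Directions of the medians held in every alternative run, and counts of calls did not. Under library-size scaling, which shifted the median of all tested genes to 0.11 in total and 0.13 in polyribosomal RNA, 1 of the 44 genes fell in total RNA and 22 rose in polyribosomal RNA, and the medians of the 44, which include this shift, were -0.08 and 0.42. With plain moderation 3 fell in total, 7 rose in polyribosomal RNA and 0 rose in efficiency. Without mutant cultures 1 and 3, and with the Y-linked covariate, 0 fell and 0 rose in total RNA, 0 rose in polyribosomal RNA and 0 in efficiency (limma; unadjusted counts are given above). With no filter on low values 8 rose in polyribosomal RNA, and with a minimum of 100 only 1 rose in total RNA, since fewer genes were tested. The cause of the other changes was not tested.

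Leaving out single cultures gave 1 to 16 falls and 1 to 2 rises in total RNA, 1 to 17 rises in polyribosomal RNA and 15 to 28 rises in efficiency. Polyribosomal rises numbered 5 without wild-type culture 1, 7 without wild-type culture 2 or 3, 6 without mutant culture 3, 9 without mutant culture 4 and 1 without mutant culture 1. Efficiency rises numbered 15 without mutant culture 1. Total RNA falls numbered 10 without mutant culture 4. Of the 24 genes that rose in efficiency 15 lost the call in no more than 4 of 19 alternatives (plain moderation, no culture block, the Y-linked covariate and without mutant cultures 1 and 3), and leave-one-out values ranged from 0.34 to 1.06. None of 46 called values of single genes changed sign.

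Wild-type and mutant cultures of the same number share only that number, with deviations that correlated at -0.13 to 0.13. With it as a replicate block 2 genes fell in total and 7 rose in polyribosomal RNA. Without the culture block 0 rose in efficiency.

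Isoform ratios that passed no test changed sign in some settings. Cox4i2 over Cox4i1 was -0.53 in total RNA without mutant cultures 1 and 3 (-0.29 to 0.45 leaving out single cultures) and 0.34 in polyribosomal RNA without mutant cultures 2 and 4 (-0.55 to 0.24). Atp5g3 over Atp5g2 was -0.021 in total and -0.020 in polyribosomal RNA without mutant cultures 2 and 4 (-0.019 to 0.052 and -0.045 to 0.081). Depth limits mainly Cox4i2, Cox6a2 and Cox8b, which rest on few reads per library.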
